A study of Bos taurus with 6 samples.

Results

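The known miRNAs bta-miR-339a and bta-miR-339b were taken by name from the deposited count table of bovine serum extracellular vesicles (EVs), 2 of 706 listed miRNAs and 2 of the 359 with names of known Bos taurus miRNAs. They were chosen by name and by sequence, since the listed sequence of bta-miR-339b lies wholly inside that of bta-miR-339a, at a time when the counts of both rows in these cows were already known. Every comparison of diets given here therefore describes these libraries and is not independent evidence. Serum was collected on day 30 from 6 lactating Holstein cows kept in climate-controlled chambers, and small RNAs of the EVs, membrane-enclosed particles released by cells, were sequenced as 1 library per cow. The control group (3 cows, mid lactation) received a total mixed ration. The tested group (3 cows, mid lactation) received a ration in which whole cotton seed and soybean hull took the place of some of the alfalfa hay and corn silage. Counts of known miRNAs ran from 1226928 to 2088249 per library, 10731042 in all. CPM stands for counts per 1000000 known miRNA counts of the library, unless TMM scaling is named.

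A mature miRNA is a short RNA cut from a hairpin precursor and loaded into an Argonaute protein, which it guides to messenger RNAs that pair with its seed, bases 2 to 8 from its 5′ end. Copies of a miRNA that start at the same base and stop at different bases at the 3′ end carry the same seed and so match the same kind of site. miR-339 is conserved among mammals, and its 5′ arm has been studied in human cells as a repressor of MDM2, which limits p53, and of ICAM-1, an adhesion molecule that white blood cells bind. In RefSeq, on assembly ARS-UCD2.0, both names matched a gene of their own, MIR339A and MIR339B, on different chromosomes. MIR339A lies within the bounds of the protein-coding gene C25H7orf50 and MIR339B within those of MYO1F, a myosin gene best known from white blood cells. The authors matched reads to another assembly, ARS-UCD1.2, so no coordinates are given, and whether the hairpins fall in introns was not determined.

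The listed sequences show what a read can and cannot tell about its row. They are printed 5′ to 3′ as deposited, in DNA letters, with the seed in capitals.
bta-miR-339a: tCCCTGTCctccaggagctcac
bta-miR-339b: tCCCTGTCctccaggagctc
The 20-nt bta-miR-339b equals bases 1 to 20 of the 22-nt bta-miR-339a, which ends with 2 further bases, A and C. The seed is therefore the same in both, and no other known miRNA of the table has it. A read of 20 nt or less that stops before these bases fits both rows, and the sources used here do not say how such a read was assigned. Each row alone is for that reason an uncertain measure of its gene, while their sum does not depend on that choice as long as each read was counted once.

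Among controls the counts of bta-miR-339a were 1722, 2630 and 2794, and among tested cows they were 730, 1954 and 1376. In CPM these were 1120, 1309 and 1404 in controls and 595, 1040 and 659 in tested cows. Every tested cow was below every control cow, with tested cow 2 the closest to the control group. The group means were 1278 ± 144 CPM (SD, n = 3) and 765 ± 240 CPM (SD, n = 3), a difference of -513 CPM (-40.2%) that was larger than either SD (two-sided exact permutation test, p = 0.1, the smallest that 3 against 3 allow). Among the 312 known miRNAs with a summed count of at least 10, 2.24% lay entirely lower in tested cows on this scale. As RPM, reads per 1000000 clean reads of the library, bta-miR-339a had 121, 206 and 253 RPM among controls and 50.6, 162 and 56.9 RPM among tested cows, and the groups overlapped through tested cow 2 (exact permutation test, p = 0.2).

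The row of bta-miR-339b was either well filled or empty. Its counts were 262, 0 and 0 among controls and 546, 0 and 2211 among tested cows, or 170, 0 and 0 against 445, 0 and 1059 CPM. It was thus found in 1 of 3 control cows and in 2 of 3 tested cows, with tested cow 3 alone holding 73.2% of its 3019 counts. The group means of 56.8 ± 98.4 (SD, n = 3) and 501 ± 532 (SD, n = 3) differed by less than the SD of the tested group, and the groups overlapped (exact permutation test, p = 0.4). Their difference of 444 CPM became 166 without tested cow 3 and 695 without tested cow 2. In the 3 empty libraries a count of 0 allows a level of up to 1.49 in control cow 2, 1.51 in control cow 3 and 1.60 CPM in tested cow 2, taking 3 counts as the limit. These limits and the binomial intervals given here reflect the counting of reads alone, and PCR copies of one molecule are not independent.

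**Figure D1:**
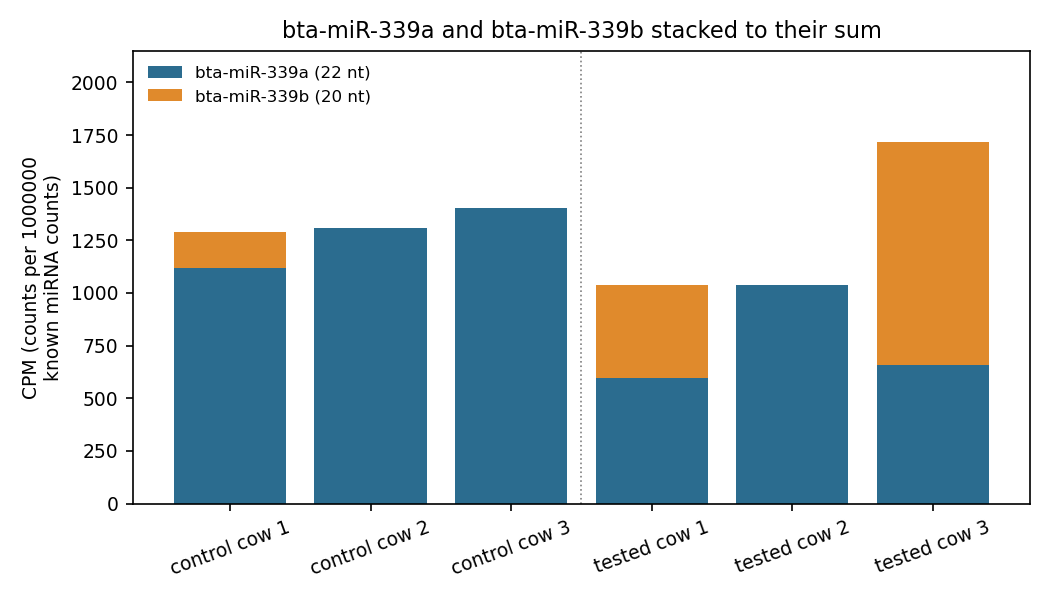
Level of bta-miR-339a (blue) and bta-miR-339b (orange) in each cow, in CPM, stacked so that the top of a bar is their sum. The blue part is lower in all 3 tested cows, the orange part is present in control cow 1, tested cow 1 and tested cow 3, and the sums run from 1040 to 1718.

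The sum of the rows varied less than either of them. It was 1984, 2630 and 2794 counts among controls and 1276, 1954 and 3587 among tested cows. In CPM the sum was 1291, 1309 and 1404 in controls and 1040, 1040 and 1718 in tested cows. Of the tested cows, 2 lay below all control cows and tested cow 3 lay above them. The means of 1335 ± 60.7 (SD, n = 3) and 1266 ± 391 (SD, n = 3) differed by -68.7 (-5.15%), well inside the SD of the tested cows (exact permutation test, p = 1). Per 1000000 clean reads the sum was 139, 206 and 253 RPM in controls and 88.5, 162 and 148 RPM in tested cows, with means of 199 ± 57.2 (SD, n = 3) and 133 ± 39.2 (SD, n = 3). On that scale the difference was -33.2%, and the groups again overlapped (exact permutation test, p = 0.3). The sign of the small difference in CPM was not fixed by the data, since it became 44.2 without tested cow 1, 44.3 without tested cow 2 and -295 without tested cow 3. Over the 6 cows the coefficient of variation was 32.5% for bta-miR-339a, 150% for bta-miR-339b and 19.5% for the sum. In controls the coefficient of variation of the sum was 4.55%, against 30.9% in tested cows.

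The division of the sum between the rows was taken within each library and needs no scaling. bta-miR-339a held 86.8% of both counts in control cow 1 and 100% in control cows 2 and 3. It held 57.2% in tested cow 1, 100% in tested cow 2 and 38.4% in tested cow 3, the only library in which bta-miR-339b was the larger row. The 95% exact binomial interval of the bta-miR-339b share was 11.7% to 14.8% in control cow 1, 40.1% to 45.6% in tested cow 1 and 60.0% to 63.2% in tested cow 3. In the 3 empty libraries the upper limits of the interval were 0.140%, 0.132% and 0.189%. The mean share of bta-miR-339a was 95.6% ± 7.62 (SD, n = 3) in controls and 65.2% ± 31.6 (SD, n = 3) in tested cows, a difference of -30.4 percentage points within the spread of the tested cows (exact permutation test, p = 0.4). It was -17.0 points without tested cow 3 and -47.8 points without tested cow 2. With the counts of each group pooled, bta-miR-339b made up 3.54% of 7408 counts in controls and 40.4% of 6817 in tested cows, where 2211 of its 2757 counts came from tested cow 3.

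The rows were also compared between the diets by edgeR's quasi-likelihood test, in one fit over the 623 miRNAs with a summed count of at least 10. In tested cows the edgeR estimate for bta-miR-339a was -0.79 ± 0.34 (SE) on the log2 scale, 0.578 times the control level with an approximate 95% interval of 0.347 to 0.963. Its unadjusted p was 0.0374, and adjusted over all 623 miRNAs by the method of Benjamini and Hochberg in edgeR it was 0.448. The log2 fold change of bta-miR-339b was 3.09 (standard error 2.05, unadjusted p of 0.156 and adjusted p = 0.568 from edgeR), with an interval from -1.35 to 7.53 that spans a fall and a rise. When the rows were replaced by their sum, the log2 fold change was -0.16 (standard error 0.29, unadjusted p of 0.592 and adjusted p = 0.918 from edgeR), with an interval of 0.583 to 1.38 times the control level.

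The threshold for a call was an absolute log2 fold change above 1 at an unadjusted p below 0.05. By edgeR 0 of the 2 rows passed it, against 3.21% of all miRNAs tested. An unadjusted p below 0.05 in either direction was found for 1 of the 2 and for 29 of all 623 miRNAs. For a lower level in tested cows, the direction of bta-miR-339a, the share of all miRNAs was 1.93%. With DESeq2, which passed 4.17% of all miRNAs, and with limma, which passed 2.41%, the pair likewise had 0 of 2 past the threshold. The median log2 fold change over all 623 miRNAs was 0.07. The calls changed with the fit and with single cows. In a fit of the known miRNAs only, with all 6 cows, bta-miR-339b passed the threshold in edgeR with a log2 fold change of 3.10 and an unadjusted p of 0.0029 (adjusted p = 0.608 from edgeR). That fit passed 6 of the 312 miRNAs tested. With same-numbered control and tested cows set as a replicate block, the row had a log2 fold change of 5.11 (adjusted p = 0.00273 from edgeR). The block fit passed 12 of 623 miRNAs, and the numbers were not taken as pairs. Leaving out control cow 2 raised the unadjusted edgeR p of bta-miR-339a to 0.0909, leaving out control cow 3 to 0.136, leaving out tested cow 1 to 0.0948 and leaving out tested cow 3 to 0.116. When tested cow 2 was left out, bta-miR-339a passed the threshold in edgeR with a log2 fold change of -1.15 and an unadjusted p of 0.00539 (adjusted p = 0.661 from edgeR, against 0.397 to 0.949 over all alternatives). In that fit 19 of 596 miRNAs passed. Control cow 1 held all 262 control counts of bta-miR-339b, and without it that row passed in edgeR (adjusted p = 4.98e-06 from edgeR, against 4.98e-06 to 0.994 over all alternatives) against a control group with 0 counts, although tested cow 2 also had 0. Without control cow 1, 23 of 597 miRNAs passed.

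**Figure D2:**
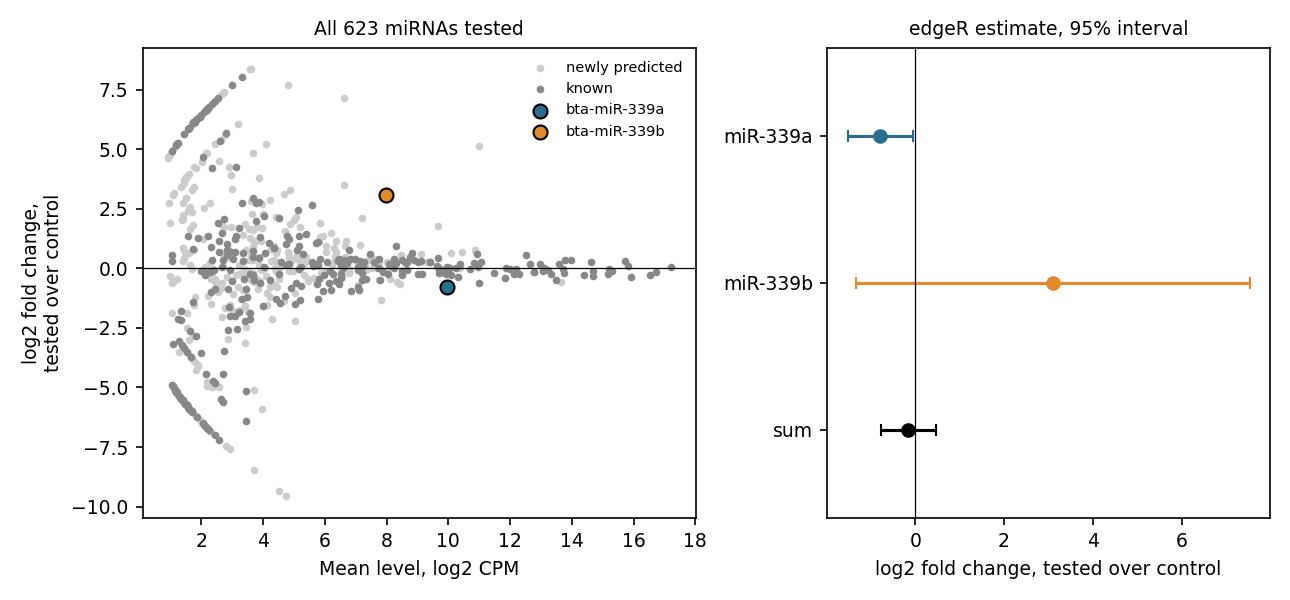
Left, log2 fold change of tested over control against mean level (edgeR's log2 CPM over all miRNA counts) for all 623 miRNAs tested, with bta-miR-339a in blue and bta-miR-339b in orange. Right, the edgeR estimate with its approximate 95% interval for each row and for their sum; the interval of the sum spans 0, and that of bta-miR-339b is the widest.

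In the order of known miRNAs by mean level over the 6 cows, bta-miR-339a was at rank 49 of 359 and bta-miR-339b at rank 80. By single cow, the rank of bta-miR-339a was 49, 43 and 40 in controls and 61, 46 and 64 in tested cows. The sum of the rows would stand at rank 46, 43 and 40 in controls and at 48, 46 and 40 in tested cows. Its place in the order therefore overlapped between the groups, whereas that of bta-miR-339a overlapped only through tested cow 2. The rank of bta-miR-339b was 95 in control cow 1, 71 in tested cow 1 and 48 in tested cow 3, and in the other 3 cows it was among the miRNAs with 0 counts. The neighbours of bta-miR-339a were bta-miR-192 with a mean of 1025 CPM above it and bta-let-7i with 1005 below it, against 1021 for bta-miR-339a itself, and these levels did not differ beyond their spread over cows. Their coefficients of variation were 18.2% and 20.1%, close to the 19.5% of the summed pair. The neighbours of bta-miR-339b were bta-miR-1839 with 297 and bta-miR-10b with 278, against a mean of 279 for bta-miR-339b, which was at 0 in 3 cows while the lowest values of these neighbours were 225 and 146.

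The cows with counts on bta-miR-339b were also those whose libraries yielded the smallest part of known miRNAs. The deposited per-million values give the number of clean reads of each library. Known miRNA counts made up 10.8%, 15.7% and 18.0% of clean reads among controls and 8.50%, 15.6% and 8.63% among tested cows. The 3 libraries with bta-miR-339b were those at 10.8%, 8.50% and 8.63%, and the 3 without it those at 15.6% and above. They were also the libraries with the most clean reads, 14270662, 14426224 and 24187264, against 11048676 to 12788408 in the others. The part of library yield and depth in the presence of bta-miR-339b was not tested.

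**Figure D3:**
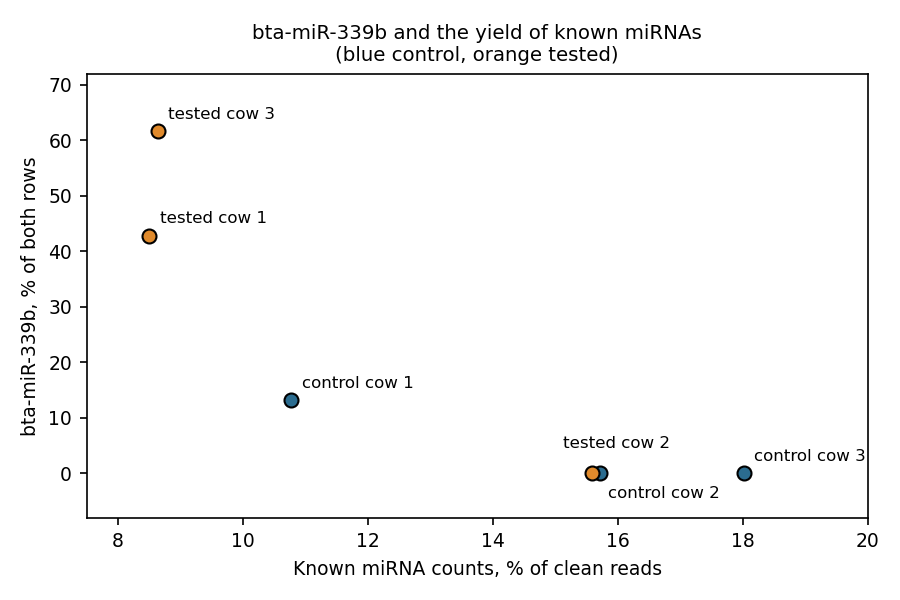
Share of bta-miR-339b in the counts of both rows (percent, vertical) against known miRNA counts as a percent of clean reads (horizontal), 1 point per cow, control in blue and tested in orange. The 3 cows above 0 lie at 8.50% to 10.8% and the 3 cows at 0 lie at 15.6% to 18.0%.

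miRNAs that mark particular cells were read from 5 lists to see which sources moved with the pair, and every member found had counts in every cow. The list for platelets and vessel wall, with 3 of 3 members found, summed to 100, 53.3 and 12.6 CPM among controls and to 147, 39.9 and 212 among tested cows. Its 3 highest cows were the 3 with counts on bta-miR-339b, and its part in the result was not tested. Scaled by TMM, its members bta-miR-126-3p and bta-miR-126-5p had the same 3 cows highest. Its other member, bta-miR-223, was higher in control cow 2 (15.1 CPM) than in tested cow 1 (10.8 CPM). The list for red blood cells (3 of 3 found) summed to 1.35% to 2.84% of known miRNA counts in controls and to 0.862% to 5.96% in tested cows, and that for epithelium (5 of 5 found) to 7.39% to 8.83% and 8.73% to 9.29%. White blood cell miRNAs (3 of 4 found) summed to 194 to 364 CPM in controls and 78.1 to 428 in tested cows, and the liver marker bta-miR-122 ran from 182 to 462 and from 150 to 598. The cows with bta-miR-339b stood at both ends for white blood cells, bta-miR-122 and red blood cells. Control cow 1 and tested cow 1 had the 2 highest values for white blood cells (364 and 428 CPM), for bta-miR-122 (462 and 598 CPM) and for red blood cells (2.84% and 5.96%), while tested cow 3, where bta-miR-339b was highest, had the lowest values for these 3 (78.1 CPM, 150 CPM and 0.862%). Scaled by TMM, bta-miR-142-5p and bta-miR-150 of the white blood cell list were also highest in control cow 1 and tested cow 1. On that scale bta-miR-155 was instead highest in control cow 3 (132 CPM) and tested cow 2 (108 CPM). Its lowest value was in tested cow 3 (21.7 CPM). For epithelium tested cow 3 had the highest value (9.29%) and control cow 3, without bta-miR-339b, the lowest (7.39%). Members of that list differed when scaled by TMM. bta-miR-200a and bta-miR-200b were lowest in control cow 3 (20222 and 1656 CPM), and bta-miR-141 was highest in tested cow 3 (17208 CPM). bta-miR-205 and bta-miR-200c were instead highest in control cow 3 (40.9 and 47736 CPM), against 1.39 and 41459 CPM in tested cow 3. In serum, a change in the number of EVs from a cell type and a change in their content per EV cannot be told apart.

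The seed of the pair was found in 4 newly predicted miRNAs besides the 2 known ones, all 19 or 20 nt long. They are printed with the seed in capitals to show how closely they follow bta-miR-339a, which none of them lies inside.
novel27_mature: tCCCTGTCctccaagagctt
novel274_mature: tCCCTGTCctccgggagctg
novel64_mature: tCCCTGTCctccgggagcta
novel65_mature: tCCCTGTCctccaggaccc
Each differs from bta-miR-339a at 2 bases, counted from 1 at the 5′ end with the base of bta-miR-339a first. These are G14A and C20T for novel27_mature, A13G and C20G for novel274_mature, A13G and C20A for novel64_mature, and G17C and T19C for novel65_mature. The seed and the bases next to it are thus shared, and the differences lie towards the 3′ end.

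Of the 4, novel27_mature held most counts, 279, 296 and 207 among controls and 297, 172 and 376 among tested cows. In CPM it had 181, 147 and 104 in controls and 242, 91.5 and 180 in tested cows, and the groups overlapped (log2 fold change 0.19, standard error 0.57, adjusted p = 0.979 from edgeR). It was found in all 6 cows, the 3 with an empty bta-miR-339b row included. The counts of novel274_mature were 0, 1 and 0 among controls and 0, 60 and 3 among tested cows, so that it was found mainly in tested cow 2, where bta-miR-339b had none (adjusted p = 0.448 from edgeR). The other members held 26 counts (novel65_mature) and 5 counts (novel64_mature) over the 6 cows and are given as counts only. With the 4 rows added to the sum of the known pair, the log2 fold change of the whole seed group was -0.11 (standard error 0.27, adjusted p = 0.962 from edgeR).

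**Figure D4:**
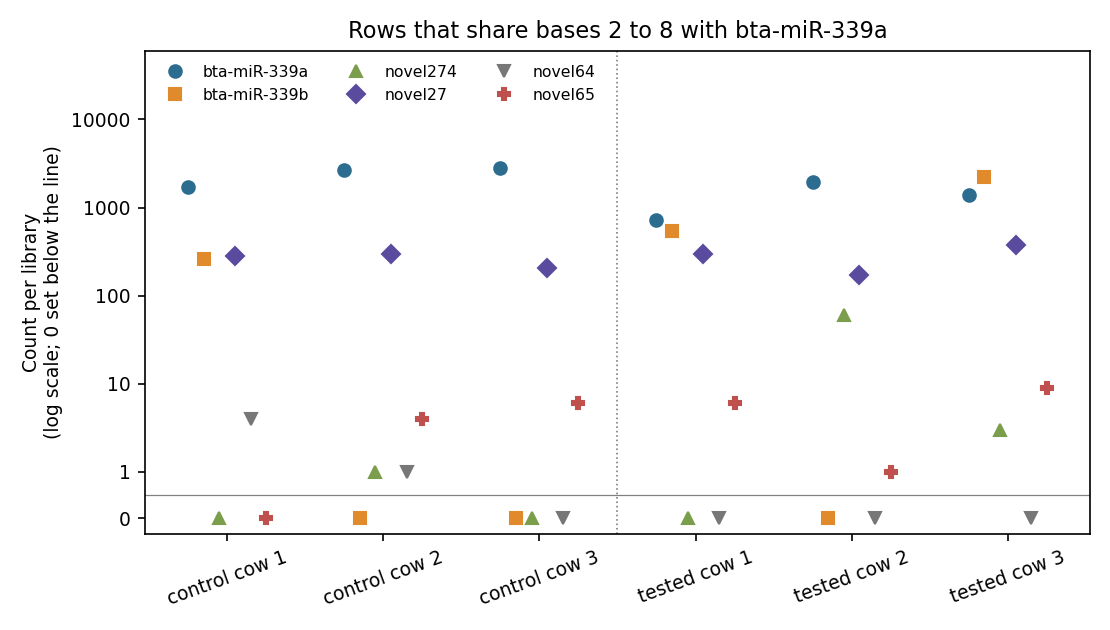
Counts per library of the 6 rows with the same bases 2 to 8, on a log scale with counts of 0 set below the grey line, 1 column of points per cow. bta-miR-339a and novel27_mature have counts in all 6 cows, and bta-miR-339b lies at 0 in control cows 2 and 3 and in tested cow 2.

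Among the known miRNAs, 8 pairs had one listed sequence wholly inside another, and in 4 of them, bta-miR-339a with bta-miR-339b included, both rows had at least 100 counts. They are shown with the bases that only the longer sequence holds in capitals.
bta-miR-339a: tccctgtcctccaggagctcAC
bta-miR-10174-3p, which holds bta-miR-23b-3p: atcacattgccagggattaccacG
bta-miR-11976, which holds bta-miR-11975: ggcggcggcggcgccggggcG
bta-miR-10174-5p, which holds bta-miR-23b-5p: Tgggttcctggcatgctgattt
The pair with the most counts after miR-339, bta-miR-23b-3p inside bta-miR-10174-3p, was also divided unequally among cows. Its shorter row held 29.4%, 43.3% and 38.3% of both counts among controls and 48.1%, 83.0% and 6.62% among tested cows. Tested cow 3, with the highest share of bta-miR-339b, had the lowest share here, and tested cow 2, one of the 3 without bta-miR-339b, had the highest. Summed, this pair had a coefficient of variation of 13.0% over the 6 cows, against 51.6% for the longer row and 60.1% for the shorter one.

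The remaining pairs had fewer counts. For bta-miR-11975 inside bta-miR-11976 the shorter row held 11.9%, 1.39% and 0% among controls and 0.415%, 11.8% and 13.9% among tested cows, of 30 to 404 counts per cow. For bta-miR-23b-5p inside bta-miR-10174-5p it held 71.6%, 97.9% and 99.1% among controls and 90.9% and 41.9% in tested cows 1 and 2, while tested cow 3 had no count on either row. In these pairs the coefficient of variation of the sum, 64.9% and 90.3%, lay between those of the rows. A lower coefficient of variation of the sum than of either row was thus found in 2 of these 4 pairs, and in 3 of the other 4 known pairs, which had 127 to 183 counts in all. The shorter row was empty beside a filled longer row in 3 cows for miR-339, in 1 cow for bta-miR-11975 and in 0 cows for both miR-23b pairs. Among the other 4 known pairs this was so in 1 to 4 cows.

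**Figure D5:**
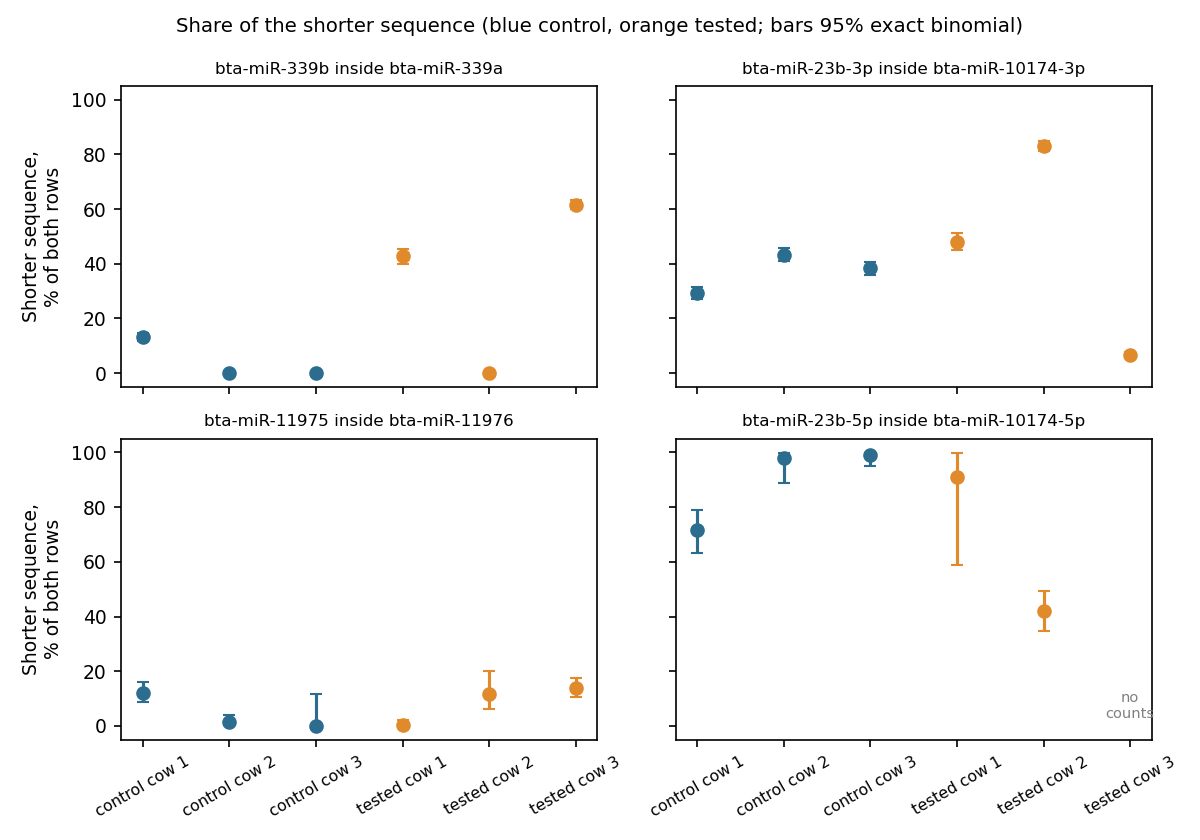
Share of the shorter sequence in the counts of both rows (percent) in each cow for the 4 known nested pairs with at least 100 counts on both rows, control in blue and tested in orange, with 95% exact binomial intervals. bta-miR-339b runs from 0% to 61.6% and bta-miR-23b-3p from 6.62% to 83.0%, and intervals are wide where counts are few.

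The known miRNAs whose levels followed the pair most closely were sought among 109 with a summed count of at least 1000, as the correlation of log2(CPM + 1) over the 6 libraries, with CPM scaled by TMM. For bta-miR-339a these were bta-miR-151-5p (Pearson r = 0.94, Spearman rho = 0.94), bta-miR-125b (0.93 and 0.89) and bta-miR-423-3p (0.89 and 0.94). For bta-miR-339b they were bta-miR-429 (0.88 and 0.88), bta-miR-100 (0.85 and 0.76) and bta-miR-128 (0.81 and 0.76). For the sum they were bta-let-7i (0.89 and 0.89), bta-miR-6529a (0.83 and 0.83) and bta-miR-92b (0.82 and 0.54). The 3 sets had no miRNA in common. These are the highest of 109 values over the same 6 libraries, which differ in depth and diet, and are given as a description.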

How the data were processed

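Small RNAs of serum EVs of 6 cows were sequenced. The authors trimmed the reads (cutadapt 1.14 and Bowtie are named in the submitters' processing notes), kept reads of set lengths, matched them to ARS-UCD1.2, removed other RNA classes and took known miRNAs from miRBase. The counting tool is not given in the sources used here. The authors deposited whole counts without normalization, and a table labelled TPM whose values are RPM, the deposited count per 1000000 clean reads. Their own fold changes and p-values, in that table and in a list of called miRNAs, were not used. Sequences are those of the deposited table.

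Counts were fitted in R 4.3.3 with edgeR 4.0.16 (TMM, glmQLFit, glmQLFTest) over the 623 miRNAs with a summed count of at least 10, before and after replacing both miR-339 rows by their sum. Intervals of fold changes were taken from the F statistic. Single measures were compared by two-sided exact permutation tests with Python 3.11.15 and SciPy 1.17.1, and library shares have 95% Clopper-Pearson intervals. The labels do not tie cows to litters or batches. The alternatives were DESeq2 1.42.0, limma 3.58.1 on log2(CPM + 1), other factors, filters and totals, a replicate block, and each cow left out. Merging of nested rows and adding of the newly predicted relatives were chosen after seeing the data. edgeR, DESeq2 and limma were each run on simulated counts with known changes larger than those of either row in the main fit. No result given here rests on those runs. The members, lists and tests were chosen with earlier results of these data known. Named besides the pair are rows with its seed, known nested pairs, rank neighbours, marker lists and the 3 most alike miRNAs. Counts of miRNAs ran from 1277693 to 2176002 per library, which leaves counting error small for bta-miR-339a and limits rows of few counts.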

Additional observations from a re-analysis of the deposited data

How the results depend on the processing

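Of the alternatives tried, 2 turned a direction, both for the sum in CPM. The exact permutation tests of 3 against 3 cannot pass 0.05, so their p-values say nothing about stability. For bta-miR-339a the log2 fold change ran from -0.85 to -0.75 with all cows and from -1.15 to -0.62 with a cow left out (adjusted p from 0.397 to 0.949 over all alternatives, edgeR unless DESeq2 or limma was named), and filterByExpr gave an unadjusted p of 0.0573. bta-miR-339b passed the threshold in 3 alternatives, which were the replicate block (below), the fit without control cow 1 and the fit of known miRNAs only (3.10, unadjusted p of 0.0029, adjusted p = 0.608 from edgeR, in a range from 4.98e-06 without control cow 1 to 0.994 under filterByExpr). Its log2 fold change with each cow left out ran from 2.01 (without tested cow 3) to 12.7 (without control cow 1, where the control group has no count and the fitted value depends on the prior count). For the sum the log2 fold change ran from -0.35 to -0.05 with a cow left out and passed in 0 of 17 alternatives. The number of miRNAs past the threshold was 20, and 13 under filterByExpr and 6 among known miRNAs only, where fewer were tested, 12 under the replicate block, 26 by DESeq2 and 17 to 23 with a cow left out.

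The labels number the cows 1 to 3 in each group. Same-numbered cows deviated from their group means with correlations of 0.04 to 0.11 across 312 known miRNAs, and 5 of 6 libraries correlated best with their own number, which is a hint from the data and not from the design, so the numbers were not taken as pairs. With the replicate block, bta-miR-339b had a log2 fold change of 5.11 and an adjusted p = 0.00273 from edgeR, and the other calls for the pair and its sum did not change. The cause was not tested.

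With a cow left out, the difference between the groups in CPM ran from -651 to -428 for bta-miR-339a, from 166 to 695 for bta-miR-339b and from -295 to 44.3 for the sum, and the difference in the share of bta-miR-339a in the sum from -47.8 to -17.0 percentage points. For the sum it turned to 44.2 without tested cow 1 and to 44.3 without tested cow 2. Totals of all miRNA counts or clean reads, TMM factors and pooled counts turned none of the 3 differences in level, and pooled counts and the log2 ratio of the counts did not turn that in the share.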

Other observations

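Nested sequences were also listed among the newly predicted miRNAs, in 3 pairs that were looked at after the values of bta-miR-339b were seen. In novel206_mature, which lies inside novel208_mature and is 1 nt shorter, the counts were 1, 0 and 0 among controls and 0, 133 and 211 among tested cows, beside 310, 61 and 240 and 97, 363 and 75 on the longer row. Like bta-miR-339b, this shorter row was at 0 in control cows 2 and 3, and it was also at 0 in tested cow 1 in place of tested cow 2. In novel201_mature, which lies inside novel305_mature, the counts were 133, 12 and 84 among controls and 0 in all 3 tested cows, beside 158, 83 and 56 and 165, 145 and 215 on the longer row, so that here the filled rows were those of control cows. The third shorter row, novel2_star inside novel96_mature, had 1 count in all.

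The pattern of presence of bta-miR-339b, found in control cow 1, tested cow 1 and tested cow 3 and at 0 in the other cows, was shared by 3 of the 706 listed miRNAs, itself included. Of the others, novel91_mature had 19 counts in control cow 1, 68 in tested cow 1 and 55 in tested cow 3. The third is a joint entry of a pair of newly predicted sequences, with 117, 2 and 1 counts in these cows. Both were chosen after their values were seen, and neither has the seed of miR-339.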
